A study of Laodelphax striatellus with 6 samples.

Results

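The muscle contractile and sarcomere transcripts of the small brown planthopper, Laodelphax striatellus, a sap-feeding pest of rice, were followed after treatment with β-asarone, a phenylpropanoid found in plants, and in controls. Members were the assembled genes whose protein description names a troponin, a tropomyosin, a myosin heavy, light or regulatory chain, muscle actin, muscle LIM protein, titin, twitchin, paramyosin, projectin, flightin, myophilin, alpha-actinin, a sarcoplasmic protein, calponin or arginine kinase, leaving out non-muscle myosins and light chain kinases. The rule read the descriptions only and found 37 of 59004 rows. RNA came from whole bodies of insects labelled WT, in 3 β-asarone libraries and 3 control libraries, all made from poly(A) RNA. Whether controls received a solvent is not labelled. The labels give neither dose, exposure time, sex, stage nor the number of insects pooled. Whether replicate libraries stem from independent batches of insects is not labelled either, so a p-value here reflects only library-to-library spread, which may be technical. In whole bodies, fewer muscle cells and less muscle RNA per cell cannot be told apart.

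Muscle shortens when myosin heads on thick filaments pull on actin thin filaments within the sarcomere. Calcium released from the sarcoplasmic reticulum binds troponin C, and troponin I and troponin T then let tropomyosin move off the sites on actin that myosin needs. A calcium ATPase pumps the calcium back into the reticulum and ends the contraction. Titin-like proteins, among them projectin and twitchin in insects and worms, are giant proteins of the sarcomere. Some of them link thick filaments to the Z-disc, where alpha-actinin anchors the thin filaments. In Drosophila the muscle myosin heavy chain, troponin T and the reticulum calcium ATPase each come from a single gene, and alternative splicing gives the muscle types their forms.

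The label was checked against the names found. Titin gave 14 rows, troponin 6, tropomyosin 6, muscle myosin heavy chain 3, the regulatory light chain sqh 2, the sarcoplasmic/endoplasmic reticulum calcium ATPase 2, and alpha-actinin, twitchin, myophilin and a calponin homology protein 1 each. The words for muscle actin, muscle LIM protein, paramyosin, projectin, flightin and arginine kinase matched no row. A row described as Actin-5, muscle-specific (TRINITY_DN45557_c0_g1) is worded otherwise and was therefore not a member; it was chosen for description after its values were seen. Its levels were 1910, 1837 and 1952 TPM in β-asarone libraries 1 to 3, against 2129, 2297 and 1910 TPM in control libraries 1 to 3, and the groups overlapped. In all, 31 rows carry the name of a sarcomere protein and held 98.0% of the members' summed TPM. The other 6 are names that are not specific to the sarcomere. They are both sqh rows (in Drosophila the light chain of non-muscle myosin), both calcium ATPase rows, the leucine-rich repeat and calponin homology protein, and a myophilin-like row with a starfish as best hit. Planthoppers were the best hit of 29 of the 37 members. The assembly may have divided a gene among several rows, and near-identical isoforms can share reads, so separate values within a name are uncertain.

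Values are TPM, the share of a library that a transcript takes once its length is allowed for, so levels can be compared between genes. Sequencing depth is unknown, and no counting interval can be given. The test took in every row that averaged 1 TPM or more across the 6 libraries, which left 25 members and 24816 rows in all. Among all tested rows the median log2 change, β-asarone minus control, was 0.0835. Control replicate 2 stood apart in the whole table, with a median-of-ratios size factor of 0.783, against 1.00 to 1.13 in the other libraries.

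The members together, which leave out the Actin-5 row, made up 0.202% to 0.304% of a library's TPM. Their sum was 3038, 2017 and 2288 TPM in β-asarone replicates 1, 2 and 3, against 2968, 2075 and 2631 TPM in control replicates 1, 2 and 3. Replicate 1 was the highest and replicate 2 the lowest within each group, and the groups overlapped. The mean was 2447 ± 529 TPM in β-asarone libraries and 2558 ± 451 TPM in control libraries (SD, n = 3 each), a ratio of 0.957. No member passed the threshold of an adjusted p under 0.05 (limma on log2(TPM + 1), Benjamini-Hochberg over all tested rows), where 0.00403% of all tested rows did. An unadjusted limma p under 0.05 was found for 1 of the 25 members, on the higher side, against 3.47% of all tested rows (1.99% higher and 1.47% lower). That count was 0 to 3 under the alternatives, with 0 to 2 members on the higher and 0 to 2 on the lower side. Without β-asarone replicate 1, 3 members had such a p, 1 higher and 2 lower, against 3.10% of all tested rows. It was also 3 without control replicate 1 (against 5.95%), with a replicate block (4.19%) and with trimmed-mean scaling (4.03%), each with 2 higher and 1 lower, and 2 without control replicate 2 (4.05%). The groups did not overlap for 2 of the 25 members, against 8.66% of all tested rows. Of these 2, 1 was higher and 1 lower in β-asarone libraries, where 4.53% and 4.14% of all tested rows were. With all libraries in the fit, the members' shares are close to the background. Of the 25, 10 were higher and 15 lower in β-asarone libraries, with a median log2 change of -0.06. Over all tested rows 62.8% were higher. The members' split rested on single libraries. Without control replicate 2, 4 of 25 were higher, against 42.9% of all tested rows. Without β-asarone replicate 1, 6 were, against 56.2%. The count was 17 without β-asarone replicate 2 (against 63.7%) and also without control replicate 1 (against 68.8%), which is near the background. The share of all tested rows moved the same way in each of these fits, though barely without β-asarone replicate 2. The members' median log2 change without 1 library ranged from -0.22 to 0.12, against -0.0344 to 0.176 over all tested rows.

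**Figure D1:**
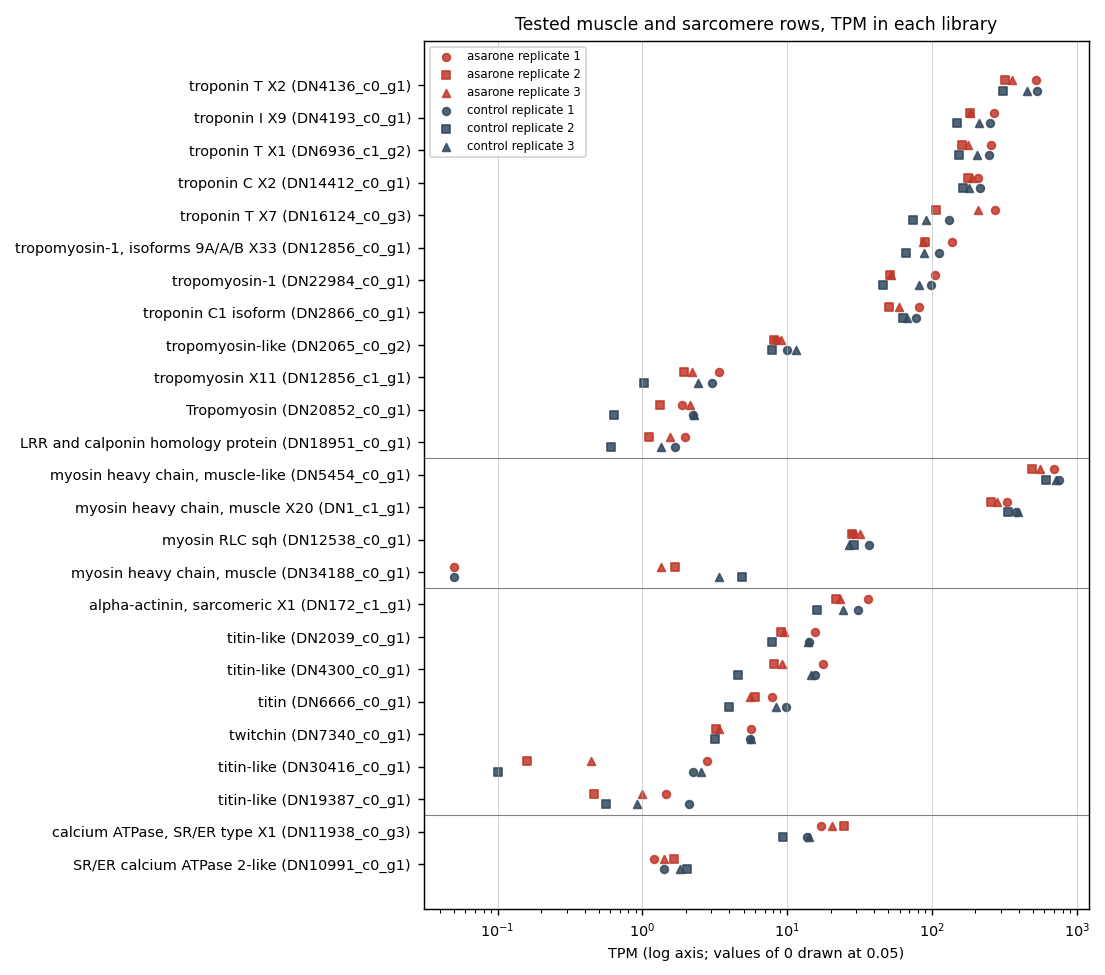
TPM of the 25 tested members in each library on a log axis, with β-asarone libraries (red) drawn above control libraries (dark) in each row, and role classes divided by lines. The main muscle myosin heavy chain rows and troponin T stand highest. The lowest points are the values listed at 0 in a low heavy chain row, drawn at a floor, and low titin-like rows come next. The groups overlap in 23 of the 25 rows.

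**Figure D2:**
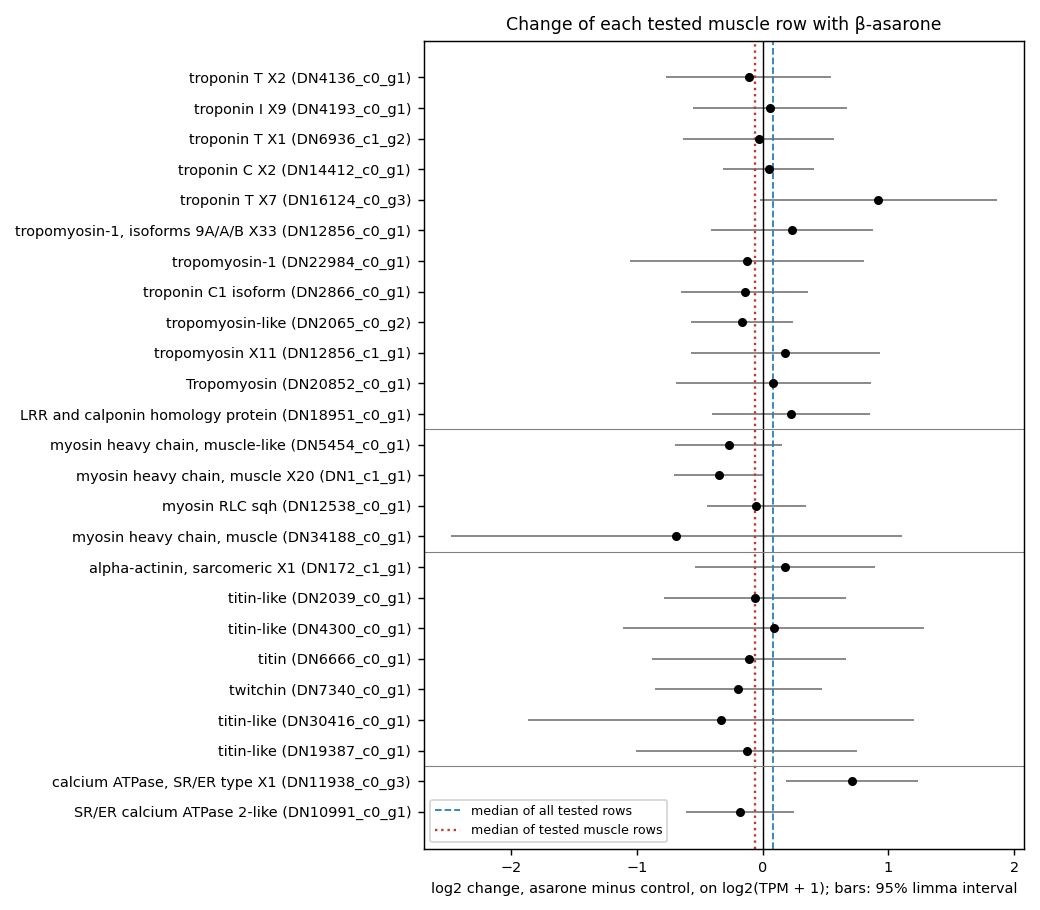
Log2 change of each tested member, β-asarone minus control, on log2(TPM + 1), with its 95% limma interval. The dotted red line is the members' median of -0.06 and the dashed blue line the median of all tested rows, 0.0835; the interval of 1 row, a calcium ATPase, leaves out 0.

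The thin filament, without actin, held 13 members, 12 of them tested, and 56.5% of the members' summed TPM. Its sum was 1867, 1155 and 1333 TPM in β-asarone libraries 1 to 3, against 1689, 1039 and 1397 TPM in control libraries 1 to 3, a ratio of means of 1.06. Of the 12, 7 were higher and 5 lower in β-asarone libraries (58.3% higher, against 62.8% of all tested rows), with a median log2 change of 0.05. The 7 include the leucine-rich repeat and calponin homology protein (log2 change 0.225), whose name is not specific to the sarcomere. None of the 12 passed the threshold, as against 0.00403% of all tested rows, and 0 had an unadjusted limma p under 0.05, against 3.47%. Troponin T, which ties the troponin complex to tropomyosin, was spread over 3 rows. The most abundant of them has isoform X2 as best hit (TRINITY_DN4136_c0_g1). It stood at 520, 322 and 356 TPM in β-asarone libraries 1 to 3, against 533, 310 and 455 TPM in control libraries 1 to 3. The order of libraries within each group was that of the muscle sum. The log2 change was -0.11 (SE 0.27, limma adjusted p = 0.981). Troponin T with isoform X1 as best hit (TRINITY_DN6936_c1_g2) showed the same order of libraries, at 254, 162 and 179 TPM in β-asarone insects and 249, 155 and 204 TPM in controls.

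Troponin I, the subunit that holds back the actin and myosin interaction (TRINITY_DN4193_c0_g1), was at 267, 183 and 184 TPM in β-asarone libraries, against 254, 149 and 210 TPM in control libraries. Its log2 change was 0.06 and turned negative under median-of-ratios scaling (-0.05) and trimmed-mean scaling (-0.03), and without β-asarone replicate 1 (-0.12) or control replicate 2 (-0.15). Troponin C, the calcium sensor, had 2 rows. The more abundant one (TRINITY_DN14412_c0_g1) was at 210, 177 and 190 TPM in β-asarone libraries, against 214, 165 and 182 TPM in control libraries. Its mean was 193 ± 16.3 TPM in β-asarone libraries and 187 ± 25.0 TPM in control libraries (SD, n = 3 each). The other row, troponin C1 (TRINITY_DN2866_c0_g1), averaged 63.8 ± 16.2 TPM and 69.4 ± 7.47 TPM in β-asarone and control libraries. Both groups summed to 256 TPM over the pair of troponin C rows.

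Tropomyosin, the coiled coil that lies along actin, had 6 rows, 5 of them tested. Tropomyosin-1 with isoform X33 as best hit (TRINITY_DN12856_c0_g1) was at 138, 89.5 and 87.2 TPM in β-asarone libraries, against 113, 66.5 and 87.8 TPM in control libraries. A second tropomyosin-1 row, with an ant as best hit (TRINITY_DN22984_c0_g1), was at 105, 51.5 and 52.6 TPM in β-asarone libraries, against 98.3, 46.2 and 81.3 TPM in control libraries. The groups overlapped in both rows, and replicate 1 was the highest library within each group. The remaining tropomyosin rows stood at means of 0.74 to 9.15 TPM. The tropomyosin sum had a ratio of β-asarone to control means of 1.05.

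The remaining troponin T row, with isoform X7 as best hit (TRINITY_DN16124_c0_g3), was chosen for description after its values were seen. It had the largest positive log2 change among the 25 members. Its levels were 275, 107 and 208 TPM in β-asarone libraries 1 to 3, against 132, 73.7 and 91.6 TPM in control libraries 1 to 3. The means were 197 ± 84.4 TPM and 99.1 ± 30.0 TPM in β-asarone and control libraries (SD, n = 3 each), with a log2 change of 0.92 (SE 0.39, 95% interval -0.02 to 1.86, limma adjusted p = 0.98). The groups overlapped, because β-asarone replicate 2 lay below control replicate 1. The unadjusted limma p of this row was 0.054. It fell under 0.05 with quantile or trimmed-mean scaling, with the replicate block, and without β-asarone replicate 2 or control replicate 1. In the other alternatives it did not. As a ratio to the X2 row within each library, the X7 row was at 0.528, 0.332 and 0.585 in β-asarone libraries, against 0.248, 0.237 and 0.201 in control libraries. These ratios did not overlap, and their geometric means differed 2.05-fold. The exact two-sided permutation test gave p = 0.1, which is the smallest p this design allows (adjusted p = 0.225 over 9 ratios between members). On leaving out any 1 library, the log2 difference of this ratio lay between 0.88 and 1.29. The X1 row kept nearly the same ratio to X2 in all libraries, 0.489 to 0.503 in β-asarone libraries and 0.449 to 0.499 in control libraries. Separation of the groups was not particular to X7. Troponin I over X2 was at 0.514, 0.567 and 0.516 in β-asarone libraries, against 0.476, 0.48 and 0.463 in control libraries. That ratio differed 1.13-fold without overlap, also with an exact permutation p = 0.1.

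The thick filament and its motor were carried by muscle myosin heavy chain, the ATPase that drives the stroke. Its 3 rows held 38.9% of the members' summed TPM. The sum of these rows was 1032, 748 and 845 TPM in β-asarone libraries 1 to 3, against 1138, 957 and 1115 TPM in control libraries 1 to 3. The groups overlapped only in that β-asarone replicate 1 lay above control replicate 2. The ratio of means was 0.818. The most abundant member (TRINITY_DN5454_c0_g1) stood at 701, 488 and 560 TPM in β-asarone libraries, against 758, 615 and 720 TPM in control libraries. Its log2 change was -0.27 (SE 0.18, limma adjusted p = 0.98). A second row, with a fruit fly as best hit (TRINITY_DN1_c1_g1), was at 330, 258 and 284 TPM in β-asarone libraries, against 380.7, 337 and 391.7 TPM in control libraries. All β-asarone libraries lay below all control libraries in this row. The means were 291 ± 36.7 TPM and 370 ± 29.0 TPM in β-asarone and control libraries (SD, n = 3 each), with a log2 change of -0.35 (SE 0.15, 95% interval -0.70 to 0.0008, limma adjusted p = 0.98).

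Both heavy chain rows stayed lower in β-asarone libraries under every alternative in which they were tested. The log2 change ranged from -0.41 to -0.15 for the more abundant row and from -0.46 to -0.27 for the other, and neither passed the threshold in any of them. Other filters, the replicate block and limma without trend or robust could not change these log2 values. The unadjusted p of the second row was on either side of 0.05 across the alternatives. The second row stood in a near-constant ratio to the first, 0.471, 0.529 and 0.507 in β-asarone libraries and 0.503, 0.548 and 0.544 in control libraries. Another, low heavy chain row (TRINITY_DN34188_c0_g1) was listed at 0 in replicate 1 of both groups. It was at 1.67 and 1.34 TPM in the other β-asarone libraries, against 4.88 and 3.41 TPM in the other control libraries. The regulatory light chain sqh (TRINITY_DN12538_c0_g1) averaged 29.5 ± 2.17 TPM in β-asarone libraries and 30.8 ± 5.497 TPM in control libraries (SD, n = 3 each). A second sqh row, with a crayfish as best hit, was at 5.28 TPM in β-asarone replicate 2 and listed at 0 in the other 5 libraries. The myophilin-like row averaged under 1 TPM in both groups.

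The balance of motor to regulatory transcripts was read as a ratio within each library, in pairs chosen after the values were seen. Myosin heavy chain (TRINITY_DN5454_c0_g1) over tropomyosin-1 (TRINITY_DN12856_c0_g1) stood at 5.09, 5.46 and 6.42 in β-asarone libraries, against 6.73, 9.25 and 8.19 in control libraries, without overlap. The fold was 0.705, with an exact two-sided permutation p = 0.1 (adjusted p = 0.225 over the 9 ratios). Over troponin I the same heavy chain stood at 2.62, 2.67 and 3.04 in β-asarone libraries, against 2.98, 4.14 and 3.42 in control libraries (exact permutation p = 0.2). Over troponin T X2 it stood at 1.35, 1.51 and 1.57, against 1.42, 1.98 and 1.58 in control libraries (exact permutation p = 0.4). Both of these ratios overlapped between groups. With 3 libraries a group none of the 9 ratios could reach 0.05, so these p-values say nothing on whether the ratios differ.

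The elastic filaments and the Z-disc held 16 members, of which 7 were tested, and 2.68% of the members' summed TPM. Their sum was 92.0, 52.8 and 55.0 TPM in β-asarone libraries 1 to 3, against 88.8, 38.2 and 76.1 TPM in control libraries 1 to 3, a ratio of means of 0.984. Of the 7, 2 were higher and 5 lower in β-asarone libraries (28.6% higher, against 62.8% of all tested rows), with a median log2 change of -0.11. Sarcomeric alpha-actinin (TRINITY_DN172_c1_g1), which cross-links thin filaments at the Z-disc, was at 36.0, 21.7 and 23.2 TPM in β-asarone libraries, against 31.0, 16.2 and 24.4 TPM in control libraries. Its log2 change of 0.18 (SE 0.29, limma adjusted p = 0.98) became -0.04 without β-asarone replicate 1 and -0.07 without control replicate 2.

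The main titin-like rows overlapped between the groups and had the same 3 high libraries. The row TRINITY_DN2039_c0_g1 was at 15.6, 9.06 and 9.49 TPM in β-asarone libraries, against 14.1, 7.84 and 13.9 TPM in control libraries. The row TRINITY_DN4300_c0_g1 was at 17.6, 8.15 and 9.25 TPM in β-asarone libraries, against 15.6, 4.56 and 14.7 TPM in control libraries. In both, β-asarone replicate 1 and control replicates 1 and 3 were the high libraries. The row described as titin (TRINITY_DN6666_c0_g1) had the same high libraries, at 7.83, 6.02 and 5.55 TPM in β-asarone insects and 9.87, 3.98 and 8.39 TPM in controls. Twitchin (TRINITY_DN7340_c0_g1), a giant kinase of the thick filament, was at 5.59, 3.24 and 3.38 TPM in β-asarone libraries, against 5.58, 3.18 and 5.63 TPM in control libraries. The other 11 titin rows averaged under 2 TPM, and 9 of them were too low to be tested. A low titin-like row (TRINITY_DN14162_c0_g2) was listed at 0 in β-asarone replicates 2 and 3 and in control replicate 2. It was at 2.12 TPM in β-asarone replicate 1, and at 1.86 and 1.99 TPM in control replicates 1 and 3.

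Calcium handling was represented by the calcium ATPase of the sarcoplasmic and endoplasmic reticulum, which every cell type uses and which muscle holds in large amounts. The member with an aphid as best hit (TRINITY_DN11938_c0_g3) was at 17.1, 24.8 and 20.5 TPM in β-asarone libraries 1 to 3, against 13.7, 9.32 and 14.2 TPM in control libraries 1 to 3. All β-asarone libraries lay above all control libraries. The means were 20.8 ± 3.84 TPM and 12.4 ± 2.67 TPM in β-asarone and control libraries (SD, n = 3 each). This was the member with the smallest unadjusted p (log2 change 0.71, SE 0.22, 95% interval 0.19 to 1.23, limma adjusted p = 0.98), so it did not pass over all tested rows. The log2 change stayed positive under every alternative in which the row was tested, from 0.53 to 0.84. Other filters, the replicate block and limma without trend or robust could not change it. Within the β-asarone group the order of libraries in this row was unlike that of most filament proteins, with replicate 2 the highest. Its lowest library was control replicate 2, as for 18 of the 25 tested members and 46.2% of all tested rows.

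Another row, described as sarco/endoplasmic reticulum calcium ATPase and by that wording not a member (TRINITY_DN8635_c0_g1, moth as best hit), lay the other way. It was at 26.8, 35.3 and 27.3 TPM in β-asarone libraries, against 31.5, 39.8 and 57.2 TPM in control libraries (log2 change -0.48, SE 0.24, limma adjusted p = 0.98). The second member row, with the cnidarian Hydra vulgaris as best hit (TRINITY_DN10991_c0_g1), was at 1.21, 1.65 and 1.42 TPM in β-asarone libraries, against 1.42, 2.04 and 1.82 TPM in control libraries. Whether these rows come from 1 planthopper gene is not shown by the table. Their sum was 45.2, 61.7 and 49.3 TPM in β-asarone libraries, against 46.6, 51.1 and 73.2 TPM in control libraries, and the groups overlapped. The log2 ratio of the group means was 0.65 over the 2 member rows, and 0.51 to 0.77 without any 1 library. Over the 3 rows it was -0.13, and its sign rested on control replicate 3: it was 0.0913 without that library, and -0.27 to -0.0384 without any other.

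**Figure D3:**
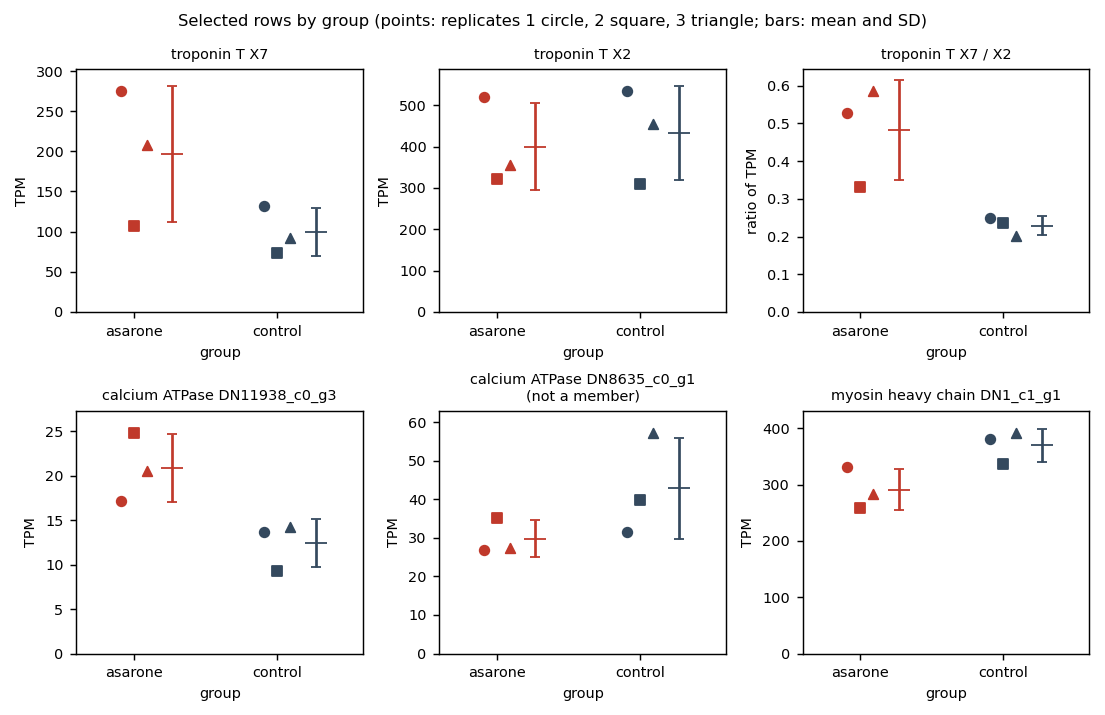
Points are the 3 libraries of each group (replicate 1 circle, 2 square, 3 triangle), with β-asarone left of control, and bars give the mean and SD; axes are TPM, or a ratio of TPM for troponin T X7 over X2. The X7 to X2 ratio, the calcium ATPase member and the second heavy chain row separate the groups, while troponin T X7 alone, troponin T X2 and the non-member calcium ATPase row overlap.

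The spread between libraries was shared by most muscle rows. Control replicate 2 was the lowest library for 18 of the 25 tested members (72.0%), against 46.2% of all tested rows. β-asarone replicate 1 was the highest for 12 of the 25 (48.0%), against 28.6% of all tested rows. The median member lay at 0.31, -0.21 and -0.11 on log2(TPM + 1) around its own mean in β-asarone replicates 1, 2 and 3, and at 0.30, -0.45 and 0.13 in control replicates 1, 2 and 3. Over all tested rows the same medians were 0.13, 0.0017 and -0.0083 in β-asarone libraries, and 0.12, -0.27 and 0.04 in control libraries. The members thus ran in the direction of the whole table, with a wider swing, in every library but β-asarone replicate 2. In β-asarone replicate 3 and control replicate 3 the shift of the whole table was small. For 7 tested members the lowest library was not control replicate 2. They were the 3 heavy chain rows, sqh, troponin C1, a low titin-like row (TRINITY_DN19387_c0_g1) and the Hydra-matched calcium ATPase row.

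**Figure D4:**
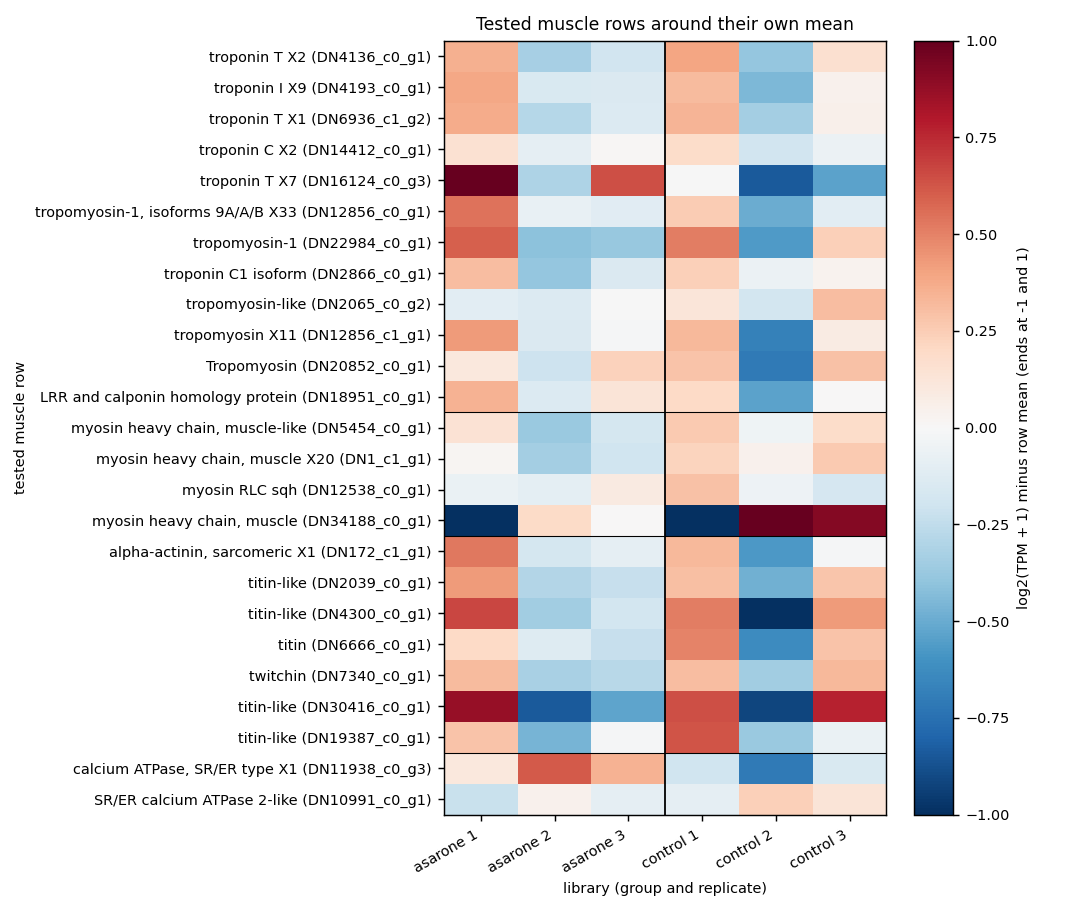
Each cell is the log2(TPM + 1) of a tested member in a library minus that row's mean over the 6 libraries, with β-asarone libraries left of control libraries. Most thin filament, titin and alpha-actinin rows are above their mean in replicate 1 of both groups and below it in β-asarone replicate 2 and control replicate 2; the aphid-matched calcium ATPase is instead highest in β-asarone replicate 2.

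Markers of other tissues gave a mixed picture beside this. Neuronal markers (16 rows) had the same order of libraries as the muscle sum within each group, at 32.1, 23.6 and 25.2 TPM in β-asarone libraries and 38.9, 15.97 and 27.3 TPM in control libraries. So did testis markers (19 rows), at 36.5, 24.4 and 28.9 TPM in β-asarone libraries and 36.5, 21.6 and 22.7 TPM in control libraries. Epidermal markers (49 rows of cuticle proteins and chitin enzymes) summed to 18648, 7038 and 15397 TPM in β-asarone libraries, against 18186, 18025 and 11772 TPM in control libraries. Gut markers (5 rows) had the reverse order in replicates 1 and 2, at 109, 127 and 114 TPM in β-asarone libraries and 102, 116 and 111 TPM in control libraries. Fat body and yolk markers (2 rows) summed to 2.04 to 2.27 TPM in β-asarone libraries and 1.17 to 2.19 TPM in control libraries. The part of tissue make-up in the muscle values was not tested.

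Genes outside the member rule, among them genes that act with the sarcomere, were picked by words in the description. The words also caught rows not tied to the sarcomere, such as calmodulin-binding transcription activator 2. Another is protein twisted gastrulation (TRINITY_DN36_c0_g1), caught by the word twist. The list held 76 rows, of which 44 were tested. Of these, 23 were higher and 21 lower in β-asarone libraries (52.3% higher, against 62.8% of all tested rows), with a median log2 change of 0.03. None passed the threshold, as against 0.00403% of all tested rows, and 0 had an unadjusted limma p under 0.05, against 3.47%. The groups did not overlap for 4 of the 44, 2 higher and 2 lower, which is near the 8.66% of all tested rows. The 2 higher rows were a calmodulin row and twisted gastrulation. Control replicate 2 was the lowest library for 21 of the 44 (47.7%), near the 46.2% of all tested rows. The ryanodine receptor (TRINITY_DN1046_c0_g1), the channel that releases calcium from the reticulum, was at 98.4, 76.3 and 79.4 TPM in β-asarone libraries, against 98.8, 53.9 and 92.7 TPM in control libraries. Tropomodulin-1 (TRINITY_DN26608_c0_g1), which caps thin filaments, was at 55.5, 39.5 and 39.2 TPM in β-asarone libraries, against 56.9, 27.1 and 44.4 TPM in control libraries. Muscle-specific protein 20 (TRINITY_DN65_c0_g1), of the calponin family, was at 38.0, 29.0 and 27.8 TPM in β-asarone libraries, against 37.7, 18.8 and 33.6 TPM in control libraries. The Z-disc protein Zasp (TRINITY_DN244_c0_g1) averaged 18.2 ± 1.85 TPM in β-asarone libraries and 20.3 ± 2.78 TPM in control libraries (SD, n = 3 each). Calmodulin (TRINITY_DN5926_c0_g1), the general calcium sensor, averaged 221 ± 3.68 TPM and 212 ± 3.34 TPM in β-asarone and control libraries without overlap, a log2 change of 0.06 (limma adjusted p = 0.98). Its best hit is a lancelet. A calcineurin B homologous protein (TRINITY_DN1765_c0_g1) averaged 40.9 ± 3.59 TPM and 42.0 ± 4.84 TPM in β-asarone and control libraries. Of the gap junction protein innexin inx3, the most abundant rows had log2 changes of 0.28 (TRINITY_DN11900_c0_g1) and 0.43 (TRINITY_DN167_c0_g1), with limma adjusted p = 0.98 for each.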

How the data were processed

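Poly(A) RNA from whole insects was made into strand-marked libraries, per the labels' protocols. Tools named by the submitters' processing notes, with no role, were DESeq2, edgeR, StringTie 1.3.4d, HISAT2 2.0.4 and cutadapt 1.9. Which tool gave the values is not given in the sources used here, nor is the build. The authors deposited TPM values per library. The table is named for FPKM, but each library sums to between 999999.33 and 1000002.3, so the values were read as TPM and the planned log-scale test was kept. TPM is relative, so a large change in abundant transcripts shifts all others, and a listed 0 can be a failed estimate. The authors' 2 columns of group means were not used.

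Rows averaging 1 TPM or more were tested with limma 3.58.1 in R 4.3.3 (eBayes, trend and robust), two-sided, on log2(TPM + 1), adjusted over all 24816 tested rows. This scale understates the change of low genes. Any 2 libraries shared the same value in 1.43% to 2.69% of tested rows, so none was taken as a duplicate. The procedure was tested on simulated data, with noise independent between libraries and planted changes larger than that of any tested member. That test does not cover smaller changes or shifts shared by a whole library.

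Members and lists were chosen with earlier results of these data known. Named members are the 4 most abundant of each role and any with an unadjusted p under 0.05. From the list of 76 further rows, the 8 most abundant are named. Any other member, the ratios and the rows outside the rule were picked with their values in view. The alternatives tried were other pseudocounts, filters and scalings, limma without trend or robust, a replicate block, planthopper best hits, summed descriptions and leaving out each library. Figures were drawn with matplotlib 3.10.9.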

Additional observations from a re-analysis of the deposited data

How the results depend on the processing

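No member passed the threshold under any of the 17 alternatives, and the smallest adjusted p of a named member was 0.677. Among all tested rows 1 passed, and 0 did with the replicate block, without any single library (0 to 0), under quantile, trimmed-mean or median-of-ratios scaling, for planthopper best hits alone, for rows averaging 5 TPM or more, when unfiltered, or at a pseudocount of 0.1. Whether the replicate numbers pair the libraries is not labelled. Over all tested rows the deviations of same-numbered libraries correlated at 0.157, 0.0814 and -0.035 for replicates 1, 2 and 3. Libraries of unlike numbers correlated at -0.139 to 0.0613. With so few libraries a group, these values cannot decide on a pairing. The block left 10 of 25 members higher, a count it could not change in this balanced design. Leaving out 1 library gave 4 to 17 of the 25 higher. The lowest count came without control replicate 2, where 42.9% of all tested rows were higher. The highest came without β-asarone replicate 2 (63.7% of all tested rows) and without control replicate 1 (68.8%). The median log2 change of the members was -0.16 with median-of-ratios, -0.15 with trimmed-mean and -0.10 with quantile scaling. Over all tested rows the same medians were 0.00489, 0.0154 and 0.00831. In the main fit they were -0.06 for members and 0.0835 for all tested rows, so the whole table moved down too. The shares higher were 32.0%, 32.0% and 40.0% of the members, against 50.8%, 52.7% and 51.4% of all tested rows. The members' median was -0.11 over the 21 tested members with a sarcomere name, an alternative chosen after seeing the data. The sign of the log2 change turned in 24 of 230 values of named members, in 9 of the 14 genes, none past the threshold. Many of the 230 values could not turn. Other filters, planthopper best hits, the replicate block and limma without trend or robust leave a row's log2 change as it was. The share of turned signs therefore understates how far the signs depend on scaling and single libraries. The log2 ratio of the members' summed TPM was -0.06 and ran from -0.25 to 0.06 without 1 library. Leaving out libraries for the calcium ATPase sums and the troponin T ratio, and counting unadjusted p-values under each alternative, were also chosen after seeing the data. The causes of these shifts were not tested. TPM keeps no depth, so the precision of low rows is unknown.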
